A study of Mus musculus with 29 samples.

Results

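The genes described here are 40 type I interferon-stimulated genes, given as a fixed list of symbols and matched to the 56748 genes of the count table. The list carries no threshold on a measured value, but it was drawn up with earlier results of these data known. All 40 were found. Of these, 34 were tested for differences among the 12353 genes counted above 10 in more than 10 of 28 mice, and 6 were counted too rarely to be tested (Mx1, Oas1a, Ddx60, Zbp1, Ifi44 and Oas3). RNA was sequenced from the aortic arch of 29 mice of a C57BL6J/FVB F1 hybrid background. The mice were either wild-type (WT) or Ercc1Δ/-, which carries a loss-of-function allele and a hypomorphic allele of Ercc1 in every cell. At 6 weeks of age 5 WT and 5 Ercc1Δ/- mice were fed ad libitum (AL). At 22 weeks, 4 WT and 4 Ercc1Δ/- mice were fed AL, and 5 WT and 5 Ercc1Δ/- mice were under dietary restriction (DR), which began with a 10% cut at 7 weeks and stood at 30% from 9 weeks. All mice ate AIN93G pellets and were housed alone, and each library came from a separate mouse. A further AL-fed WT library of 22 weeks, mouse 003, held 400410 counts and was left out of the groups.

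Type I interferons are cytokines made when a cell senses viral or misplaced nucleic acid, for example DNA in the cytosol through cGAS and STING, or RNA through RIG-I and MDA5. They bind a receptor of IFNAR1 and IFNAR2 chains, whose kinases JAK1 and TYK2 phosphorylate STAT proteins such as STAT2, which join IRF9 in a complex that binds the interferon-stimulated response element of its target genes. The targets include sensors, antiviral effectors, ubiquitin-like modifiers, the amplifier IRF7 and the brake USP18, so that the pathway both feeds itself and ends itself. ERCC1 is part of an endonuclease needed for nucleotide excision repair and crosslink repair, and the study looked for molecular changes behind vascular aging in Ercc1Δ/- mice and for what DR alters in them.

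The promoters of some members carry the letters this complex is known to bind. RefSeq promoters (GRCm38.p6, 250 bases before to 50 bases after a start site, placed here on GRCm39 by an exact match) were listed for 29 of the 40 members, and not for Dhx58, Mx1, Parp9, Rtp4, Parp14, Ifi27, Ifi27l2a, Zbp1, Usp18, Mx2 and Oas2. The motif GAAANNGAAA, the core of the response element, was searched on both strands with overlapping matches counted. It was found in 14 of the 29 members, or 48.3%, and in 1079 of 27025 genes of the same table, or 3.99%. A match is a description of letters and not a measured binding site. The windows below show it in 6 members with the motif in capitals, each read 5′ to 3′ on the strand of its gene, and were chosen because these members include antiviral effectors with large values in the comparisons that follow and a pair of near copies.
Isg15 (chr4:156285314-156285371, minus strand): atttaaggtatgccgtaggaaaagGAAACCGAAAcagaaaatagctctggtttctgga
Ifit1 (chr19:34618180-34618237, plus strand): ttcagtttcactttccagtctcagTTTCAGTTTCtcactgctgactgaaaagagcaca
Ifit3 (chr19:34560783-34560840, plus strand): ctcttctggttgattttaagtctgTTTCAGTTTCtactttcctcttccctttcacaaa
Ifit3b (chr19:34585179-34585236, plus strand): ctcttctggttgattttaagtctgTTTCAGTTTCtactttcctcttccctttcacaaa
Rsad2 (chr12:26506538-26506595, minus strand): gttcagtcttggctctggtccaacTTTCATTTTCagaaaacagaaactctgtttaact
Bst2 (chr8:71990213-71990270, minus strand): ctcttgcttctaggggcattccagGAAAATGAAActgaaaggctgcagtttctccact
In Isg15 the motif occurred 3 times in overlapping copies, starting 78, 72 and 66 bases before the start site. Ifit1, Ifit3, Ifit3b and Bst2 held 2 copies each. Capitals mark 1 copy per window, and further copies inside a window are left in lower case. The Ifit3 and Ifit3b windows hold the same letters. The motif also occurred in the promoters of Stat2, Ifih1, Eif2ak2, Oas1a, Oas3, Ddx60, Slfn5 and Trim30a, and it was not matched in those of the other 15 listed members, Irf7 and Irf9 among them.

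The 28 libraries held 921167 to 9616382 counts on genes, and the Ercc1Δ/- libraries of 22 weeks were shallower (1294980 to 3855444 under AL and 921167 to 2572523 under DR) than the WT libraries (3903589 to 9616382 and 2660422 to 6124471). Values below are normalized counts, that is counts divided by a library size scaled by the trimmed mean of M values (TMM) and set to a common library of 3683502 counts. They are not divided by gene length, so they compare mice and not genes. Ercc1 itself ran from 28.2 to 78.7 in the 14 Ercc1Δ/- mice and from 52.2 to 136 in the 14 WT mice, with overlap. Sex labels matched Xist and 4 Y-linked genes in 28 of 28 mice, and the smooth muscle genes Myh11, Acta2 and Tagln were at 13370 or above in every library.

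The 40 members ranked the 6 groups in much the same way. The mean was highest in AL-fed Ercc1Δ/- mice of 22 weeks for 39 of the 40 members, the exception being Trim25, whose mean was higher under DR (values of 75.3, 70.8, 170.3, 138 and 80.0). The 3 Ercc1Δ/- groups took the first 3 places for 37 members, and Dtx3l, Herc6 and Ifit2 were the exceptions. Second place fell to Ercc1Δ/- mice under DR for 26 members and to Ercc1Δ/- mice of 6 weeks for 13. The lowest mean was in WT mice under DR for 27 members, in WT mice of 6 weeks for 11 and in AL-fed WT mice of 22 weeks for 2. Many neighbours in this order did not differ beyond their spread. In edgeR 0 members were called between AL-fed and DR-fed Ercc1Δ/- mice, and 0 between WT mice of 6 and 22 weeks.

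**Figure D1:**
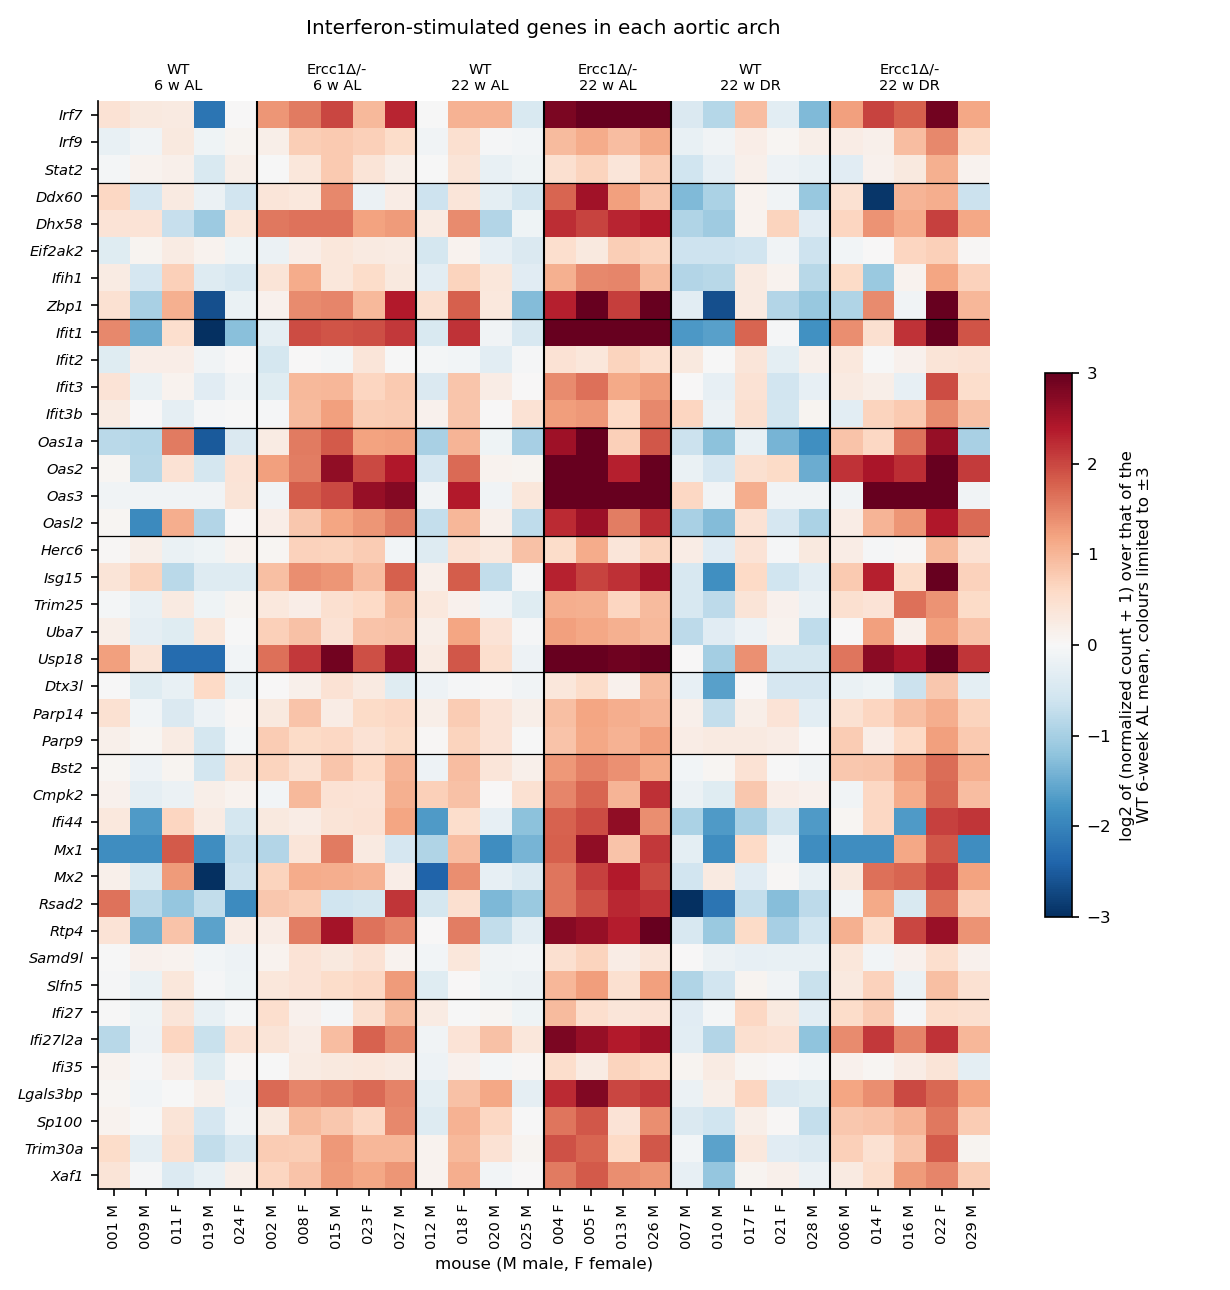
Normalized counts of the 40 members (rows, grouped by role) in 28 mice (columns, grouped by genotype, age and diet), as log2 of (value + 1) over (mean + 1) of the WT mice of 6 weeks. Red is higher and blue lower, and the 4 AL-fed Ercc1Δ/- mice of 22 weeks form the darkest red block.

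In the aortic arch of AL-fed mice of 22 weeks, the interferon-stimulated genes were higher in Ercc1Δ/- mice than in WT littermates. A gene was called when its adjusted p was at most 0.05 and its fold change at least 1.2 in edgeR's quasi-likelihood test with sex as a covariate. All 34 tested members lay above 0, and 30 were called higher, against a background of 5.88% of all tested genes called higher. The median log2 fold change was 1.03 over the 34 members and 0.03 over all 12353 genes. In 9 of the 34 members (Dhx58, Ifit1, Irf7, Isg15, Mx2, Oas2, Rsad2, Rtp4 and Usp18) too few WT mice passed the count minimum, so that they entered the test through the group where they were high. The median of these 9 was 2.50. The other 25 members would have passed on WT mice alone, and 21 of these were called, with a median of 0.89. Counted without a model, the normalized counts of both groups did not overlap for 27 of the 34 tested members, all with Ercc1Δ/- mice higher. Of all tested genes, 9.01% were higher without overlap. The 27 include all 9 members that entered the test through the group where they were high. Over all 40 members the count was 31, for which no share that includes untested genes is given. These are bulk samples, in which more cells of a type that uses a gene and more RNA of that gene per cell cannot be told apart.

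**Figure D2:**
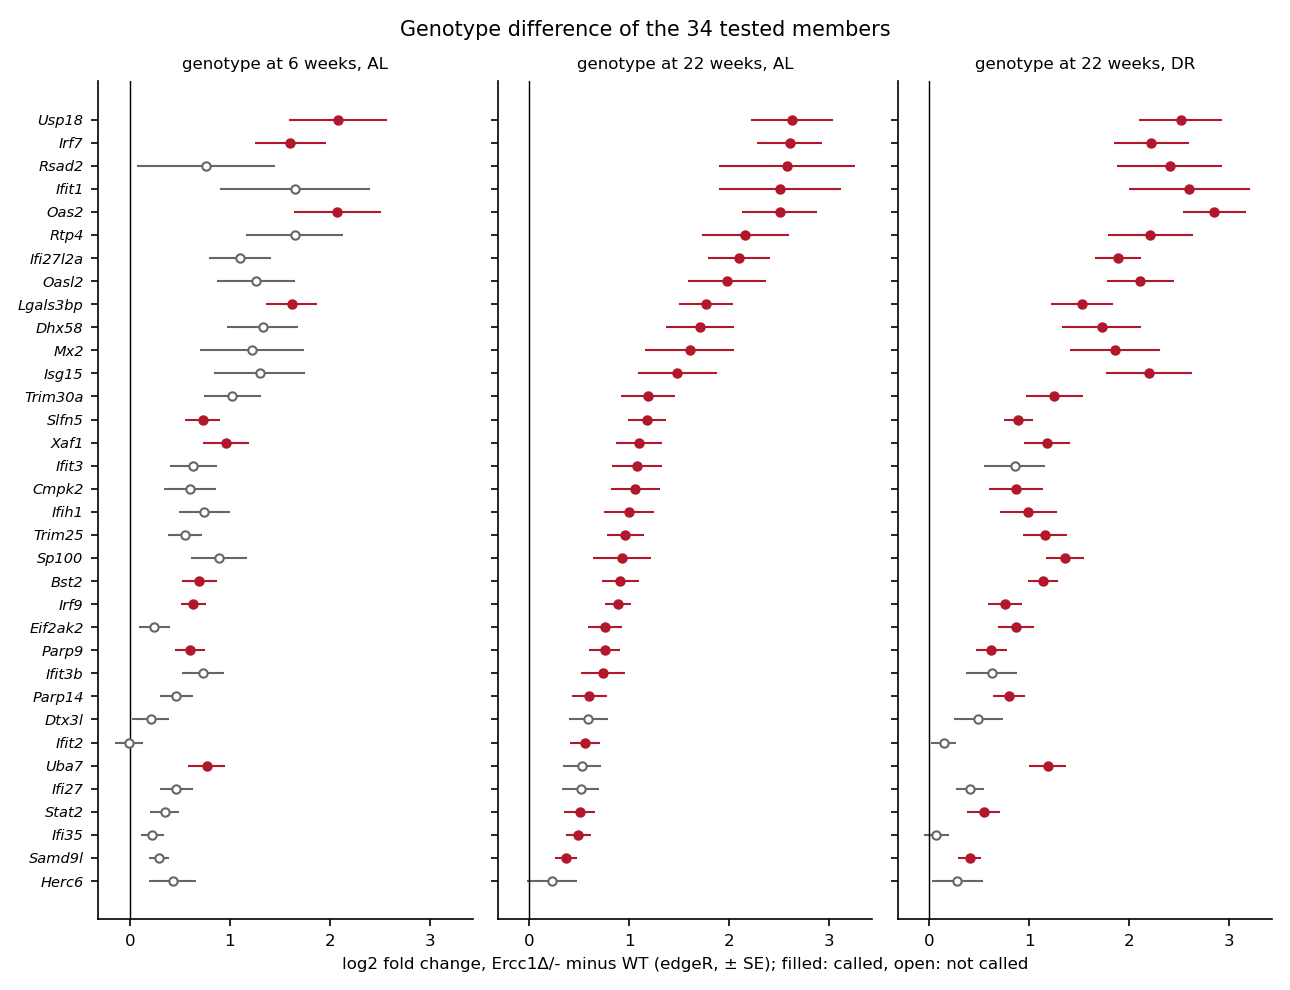
Log2 fold change (Ercc1Δ/- minus WT) with its standard error for the 34 tested members, in 3 comparisons on one axis, ordered by the comparison at 22 weeks under AL. Filled points are called and open points are not, and the counts of filled points are 10, 30 and 27 from left to right.

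The transcription factors of the pathway differed in how far they moved. Irf7 (chr7:140842619-140846398, GRCm39), the interferon-induced amplifier of interferon transcription, measured 16.5, 35.01, 35.04 and 11.8 in the 4 AL-fed WT mice of 22 weeks. It measured 124, 179.7, 145 and 142 in the 4 Ercc1Δ/- mice. The lowest Ercc1Δ/- mouse lay more than 3 times above the highest WT mouse, and the log2 fold change was 2.60 ± 0.33 (SE, adjusted p = 4.65e-05). Irf9 (chr14:55841028-55847812), the DNA-binding subunit of the complex with STAT2, measured 113, 169, 119 and 114 in WT and 234, 264, 232 and 266 in Ercc1Δ/- mice. Its groups did not overlap either, at a log2 fold change of 0.89 ± 0.13 (SE, adjusted p = 9.58e-05), although Irf9 shares a strand with the overlapping gene Rnf31, so that some of its reads are uncertain. Stat2 (chr10:128106352-128128735), the partner of IRF9, measured 169.8, 224, 144 and 156 in WT and 239, 270.0, 220.4 and 289 in Ercc1Δ/- mice. Here 1 WT mouse reached above the lowest Ercc1Δ/- mouse, and the difference of 0.50 ± 0.16 (SE, adjusted p = 0.0372) was among the smallest that were called.

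Among the sensors of nucleic acid, the 3 tested members were called higher. Dhx58 (LGP2), which modulates the RNA sensors, stood at 9.83 ± 7.58 in WT and 37.7 ± 4.08 in Ercc1Δ/- mice (mean ± SD), a log2 fold change of 1.71 ± 0.34 (SE). Ifih1 (MDA5), a sensor of long double-stranded RNA, changed by 0.99 ± 0.25, and Eif2ak2 (PKR), the kinase that halts translation on double-stranded RNA, by 0.76 ± 0.17. The 4 IFIT genes, which bind foreign RNA and block its translation, were called higher by unequal amounts. Ifit1 changed most, from 19.6 ± 22.2 to 126 ± 17.6, or 2.50 ± 0.61 (SE, adjusted p = 0.0151). Ifit3 rose by 1.08 ± 0.25, Ifit3b by 0.73 ± 0.22 and Ifit2 by 0.55 ± 0.15 on the log2 scale. Ifit3 and Ifit3b are near copies whose transcripts share 19.1% and 27.2% of their 100-base windows, and their counts are uncertain to that extent.

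The 2',5'-oligoadenylate synthetases make the second messenger that switches on RNase L. Oas2 (chr5:120868398-120887933) measured 5.82, 29.9, 9.40 and 9.11 in the WT mice and 79.4, 144, 47.4 and 84.6 in Ercc1Δ/- mice. The WT mouse at 29.9 was mouse 018, and it still lay below every Ercc1Δ/- mouse. The log2 fold change of Oas2 was 2.50 ± 0.37 (SE, adjusted p = 0.000195), and that of the related gene Oasl2 was 1.98 ± 0.39 (SE, adjusted p = 0.00381). Both belong to a small set of members, with Usp18, Irf7, Rsad2, Ifit1, Rtp4 and Ifi27l2a, whose estimate was about 2 or above on the log2 scale. All of this set but Oasl2 and Ifi27l2a entered the test through the group where they were high, so their rank by size is partly set by the count minimum.

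ISG15 is a ubiquitin-like protein that UBA7 activates, HERC6 and TRIM25 attach and USP18 removes. Usp18 (chr6:121222848-121247877), which also shuts down the interferon receptor, had the largest estimate of all tested members. It is among the members that entered the test through the group where they were high. It measured 4.85, 17.0, 5.98 and 3.42 in WT and 52.3, 54.6, 36.3 and 67.2 in Ercc1Δ/- mice, without overlap, at 2.63 ± 0.41 (SE, adjusted p = 0.000201). Isg15, whose promoter window is printed above, rose from 12.6 ± 11.7 to 41.5 ± 6.37, or 1.48 ± 0.39 (SE, adjusted p = 0.015). Trim25 (chr11:88890202-88911122) measured 66.9, 58.0, 49.6 and 41.0 in WT and 115, 113, 83.7 and 105 in Ercc1Δ/- mice and changed by 0.96 ± 0.18 (SE, adjusted p = 0.00108). Uba7 and Herc6 were not called: Uba7 differed by 0.53 ± 0.19 (SE, adjusted p = 0.0789) and Herc6 by 0.22 ± 0.25 (SE, adjusted p = 0.615). Herc6 (chr6:57557932-57642597) measured 21.3, 38.2, 35.04 and 52.4 in WT and 41.5, 62.0, 36.3 and 44.8 in Ercc1Δ/- mice, and its groups overlapped through most of their range. Some Herc6 reads are uncertain, as 17.1% of its transcript windows are shared with Gm45193.

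The 7 tested antiviral effectors were called higher. Rsad2 (viperin), which makes a chain-terminating nucleotide, rose by 2.58 ± 0.68 (SE, adjusted p = 0.0203), and its neighbour Cmpk2, a mitochondrial nucleotide kinase, by 1.06 ± 0.24 (SE, adjusted p = 0.00575). Both lie on chromosome 12 and are transcribed away from each other. Rtp4 rose by 2.16 ± 0.43, with 23.0% of its windows shared with Gm45338, and Mx2, a dynamin-like GTPase, by 1.60 ± 0.45. Bst2 (tetherin), which holds virions on the cell surface, rose by 0.91 ± 0.18. Slfn5 (chr11:82842100-82855666), a Schlafen family member, measured 128, 164, 149.6 and 145 in WT and 328, 393, 229 and 388 in Ercc1Δ/- mice, at 1.18 ± 0.19 (SE, adjusted p = 0.000365). Samd9l (chr6:3372257-3405056), a suppressor of translation, had the smallest change that was called. It measured 175, 232, 170.1 and 174 in WT and 254, 293, 215 and 236 in Ercc1Δ/- mice, and the WT mouse at 232, again mouse 018, overlapped the Ercc1Δ/- range, at 0.36 ± 0.11 (SE, adjusted p = 0.0345). The neighbours Parp9 and Dtx3l, whose proteins bind each other, stood at 0.75 ± 0.16 (SE, adjusted p = 0.00283) and 0.59 ± 0.20 (SE, adjusted p = 0.0526), so that Parp9 was called and Dtx3l was not. Parp14 of the same cluster on chromosome 16 rose by 0.60 ± 0.17 (SE, adjusted p = 0.0237).

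Of the 7 remaining members 6 were called. Ifi27l2a (chr12:103399975-103409950), a small membrane protein gene, measured 42.7, 61.3, 85.5 and 58.5 in WT and 335, 286, 246 and 269 in Ercc1Δ/- mice. The groups were far apart, at 2.10 ± 0.31 (SE, adjusted p = 0.000289), whereas its overlapping neighbour Ifi27 on the other strand was not called, at 0.51 ± 0.19 (SE, adjusted p = 0.0835). Lgals3bp (chr11:118280716-118292918), a secreted galectin-binding glycoprotein, measured 99.0, 226, 275 and 102 in WT and 583, 841, 497 and 533 in Ercc1Δ/- mice, at 1.76 ± 0.27 (SE, adjusted p = 0.000454). Both groups were wide and yet did not meet. Xaf1, a promoter of apoptosis, rose by 1.097 ± 0.23, the TRIM protein gene Trim30a by 1.18 ± 0.27 and the nuclear body gene Sp100 by 0.93 ± 0.29 (SE, adjusted p = 0.0478). Ifi35 (chr11:101339221-101352693) measured 119, 146, 128 and 135 in WT and 190.3, 159, 212 and 202 in Ercc1Δ/- mice, a small difference without overlap at 0.49 ± 0.13 (SE, adjusted p = 0.0119). Of Trim30a's windows, 19.6% are shared with other genes. Ifi27 with Ifi27l2a, Parp9 with Dtx3l, Irf7 with Phrf1, Ifi35 with Vat1 and Eif2ak2 with Gpatch11 overlap on opposite strands. So do Rtp4 with Masp1, Dhx58 with Dhx58os and Uba7 with Inka1, among others. As no strand setting of the counting was stated, reads of such pairs are uncertain.

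The 6 members that were not tested had 87 (Oas3) to 348 (Zbp1) counts in total over 28 libraries. In a fit without the count minimum, each was called higher in AL-fed Ercc1Δ/- mice of 22 weeks. The same fit no longer called Ifi35, Mx2, Rsad2, Samd9l, Sp100 and Stat2, so that the total stayed at 30 members. The estimates were 2.82 ± 0.58 for Oas3, 2.30 ± 0.39 for Oas1a, 2.64 ± 0.58 for Ifi44, 2.20 ± 0.67 for Mx1, 2.05 ± 0.38 for Ddx60 and 1.95 ± 0.53 for Zbp1 (log2, SE). Zbp1, a sensor of Z-form nucleic acid that can start necroptosis, averaged 9.21 ± 8.15 in WT and 41.7 ± 16.4 in Ercc1Δ/- mice. Oas1a shares 40.3% of its transcript windows with Oas1g, so its counts are uncertain. The GTPase gene Mx1 averaged 1.83 ± 2.80 and 13.6 ± 6.86, near the limit of what these libraries can count.

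Depth and cell markers moved with this comparison. With every library thinned to 921167 counts, 21 members were called, and without the Ercc1Δ/- mouse 026 the count was also 21. Of 10 macrophage markers 9 were tested, and in the same comparison 7 were called higher and Mertk lower. The summed macrophage markers were 1165 to 1529 in the WT mice and 1794 to 3018 in Ercc1Δ/- mice, with 0 of the 10 markers at 0 in either group. Of 5 monocyte markers 2 were tested and both were higher, with sums of 192 to 282 and 374 to 615. Of 6 smooth muscle markers 5 were called lower, and no share of all tested genes called lower is given for this comparison. Of 6 markers of plasmacytoid dendritic cells, the professional producers of interferon, Tcf4 was called higher, and the sums were 419 to 487 and 532 to 762, nearly all of it from Tcf4, which other cells use too. T and NK cell markers summed to at most 19.5, B cell markers to at most 7.47 and neutrophil markers to at most 4.98 in these groups. Fibroblast sums were 11480 to 15820 in WT and 8876 to 11080 in Ercc1Δ/- mice, without overlap. With overlap, the WT and Ercc1Δ/- sums were 315.5 to 766.5 and 612.2 to 1261 for cardiac muscle and 1941 to 3368 and 2202 to 10280 for fat. Endothelial sums also overlapped, at 2745 to 4051 and 2217 to 3747. The part of depth and of these cells in the higher values was not tested.

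**Figure D3:**
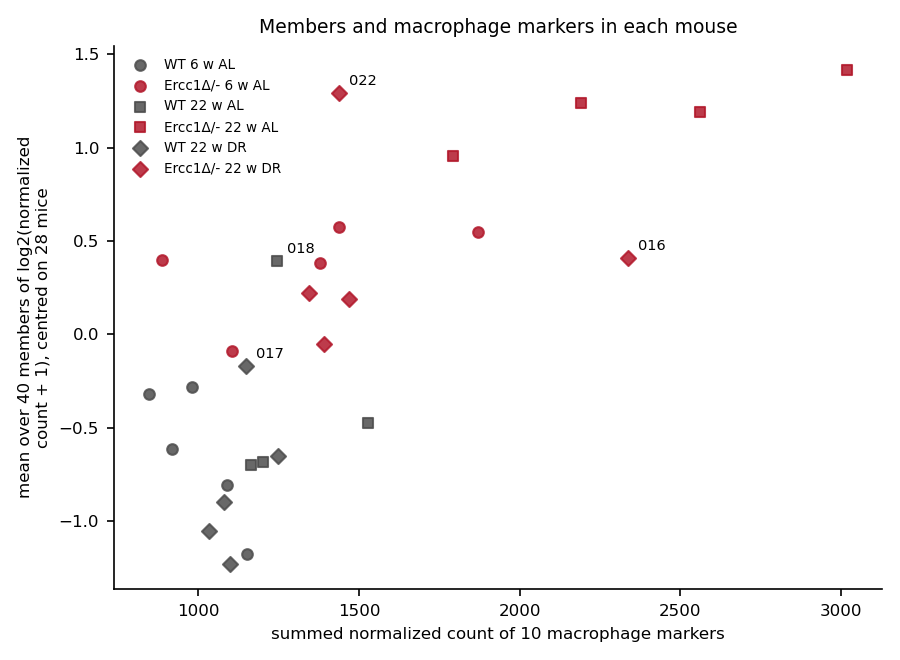
Mean over the 40 members of log2(normalized count + 1), centred on the 28 mice, against the summed normalized count of 10 macrophage markers, with 1 point a mouse. The 4 AL-fed Ercc1Δ/- mice of 22 weeks have both high sums (1794 to 3018) and high member means (0.96 to 1.41), while among DR-fed Ercc1Δ/- mice 022 has a mean of 1.29 at a sum of 1437 and 016 a mean of 0.41 at a sum of 2337.

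The genotype difference was already present at 6 weeks for part of the list. Of the 34 tested members 33 lay above 0, with a median log2 fold change of 0.74 against 0.02 over all genes, and 10 were called higher, where 0.567% of all tested genes were called higher. The groups did not overlap for 11 members, all higher in Ercc1Δ/- mice, against 1.07% of all tested genes. Among the 11 were Dhx58, Irf7, Isg15, Oas2 and Usp18, which passed the count minimum only with Ercc1Δ/- mice added. Of the 25 members that would have passed the count minimum on WT mice alone, 7 were called. Lgals3bp had the smallest p of the 34. It measured 128, 116, 121, 137 and 111 in the 5 WT mice of 6 weeks and 401, 342, 365, 403 and 343 in the 5 Ercc1Δ/- mice, with a wide gap between 2 narrow groups, at 1.62 ± 0.25 (SE, adjusted p = 0.00534). Irf9 measured 103, 113, 149, 111 and 129 in WT and 137, 202, 211, 199 and 178 in Ercc1Δ/- mice, at 0.64 ± 0.12 (SE, adjusted p = 0.00789), and the lowest Ercc1Δ/- mouse lay below the highest WT mouse. Oas2 measured 9.06, 4.36, 12.1, 5.71 and 11.8 in WT and 21.4, 27.0, 60.0, 37.1 and 50.1 in Ercc1Δ/- mice, at 2.08 ± 0.43 (SE, adjusted p = 0.0167). Oas2 did not overlap, and neither did Irf7, with 22.7, 20.7, 20.1, 2.85 and 16.7 in WT and 42.9, 51.2, 69.7, 33.8 and 84.5 in Ercc1Δ/- mice, at 1.61 ± 0.35 (SE, adjusted p = 0.0269). Xaf1 measured 35.5, 26.2, 20.1, 22.8 and 30.5 in WT and 42.9, 49.3, 66.4, 61.9 and 68.8 in Ercc1Δ/- mice and rose by 0.96 ± 0.23 (SE, adjusted p = 0.0309). The other called members were Usp18 (2.08), Uba7 (0.77), Slfn5 (0.73), Bst2 (0.70) and Parp9 (0.60).

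Several members that were high at 22 weeks were not called at 6 weeks. The IFIT genes had 0 calls of 4 in edgeR and 1 (Ifit3b) with DESeq2, while 3 had an unadjusted p under 0.05, with Ifit1 at 1.65 ± 0.75 (SE, adjusted p = 0.373) and Ifit2 at -0.01 ± 0.14 (SE, adjusted p = 0.995). Ifit1 was low in 1 Ercc1Δ/- mouse and high in 1 WT mouse, with 8.78, 45.6, 43.8, 45.0 and 51.6 and 31.7, 3.27, 16.1, 0 and 4.07 in the respective groups. Rsad2 was not called either, at 0.76 ± 0.69 (SE, adjusted p = 0.73). The number of calls at 6 weeks rested on single mice: it was 2 without WT mouse 009, 4 without 011, 5 without 019, 3 without 024, 4 without Ercc1Δ/- mouse 015 and 3 without 027, and 17 with DESeq2. Macrophage marker sums were 847 to 1153 in WT and 888 to 1871 in Ercc1Δ/- mice of 6 weeks, and 2 of 9 tested markers were called higher and 1 lower. The macrophage sums of both groups overlapped, and their part in the result was not tested.

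Between 6 and 22 weeks of age 3 members were called higher in Ercc1Δ/- mice and none was called in WT mice. From 6 to 22 weeks under AL, all 34 estimates in Ercc1Δ/- mice were above 0, and their median was 0.55 on the log2 scale against 0.01 over all genes. Those called higher were Irf7, Ifi27l2a and Cmpk2, where the background was 2.11% of all tested genes. Irf7 went from 42.9, 51.2, 69.7, 33.8 and 84.5 to 124, 179.7, 145 and 142, a change of 1.42 ± 0.30 (SE, adjusted p = 0.00806). Ifi27l2a went from 60.5, 54.0, 89.1, 159.8 and 125 to 335, 286, 246 and 269, a change of 1.52 ± 0.28 (SE, adjusted p = 0.00419). Both genes were separated by age without overlap, as were 16 of the 34 members in all, each higher at 22 weeks. Of all tested genes, 3.41% were higher without overlap. Among the 16 were Dhx58, Ifit1, Irf7, Isg15, Mx2 and Usp18, which passed the count minimum only with Ercc1Δ/- mice added. Cmpk2 rose by 1.04 ± 0.24 (SE, adjusted p = 0.0124), with 21.4, 45.6, 30.8, 30.4 and 48.5 at 6 weeks and 64.0, 78.8, 47.4 and 107 at 22 weeks, and mouse 013 at 22 weeks fell within the younger range. The count was 7 without mouse 015 and 9 without mouse 027, both of them Ercc1Δ/- mice of 6 weeks. Of the 9 tested macrophage markers 4 were called higher over the same interval, and their part in the result was not tested. In edgeR 0 members were called between the ages in WT mice, where 0.235% of all genes were called in either direction, and 0 with DESeq2. An unadjusted p under 0.05 was reached by 3 members, and no share of all genes is given at that threshold. Without overlap, 0 members were higher and 0 lower in WT mice, against 1.74% and 2.1% of all tested genes. The median in WT mice was 0.35, and 0.01 without mouse 018.

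Whether the genotype difference grew with age was tested by the interaction of both. In edgeR 0 of the 34 members were called, against a background of 0.842% of all tested genes, and 0 with DESeq2. An unadjusted p under 0.05 was seen for 3, and no share of all genes is given at that threshold. The interaction estimates had a median of 0.32 and were above 0 for 32 members, and the smallest adjusted p was 0.266. Without WT mouse 001 the median was 0.12 with 11 members below 0, and it was 0.51 without WT mouse 018. A single member's estimate had a median standard error of 0.35, which does not measure the spread of the median over members.

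Under DR most members again differed between the genotypes. All 34 lay above 0, at a median of 1.15 on the log2 scale against 0.00 over all genes, and 27 were called higher against a background of 5.97%. Of the 25 that would have passed on WT mice alone 18 were called. Oas2 had the smallest adjusted p. It measured 7.35, 5.81, 12.4, 13.2 and 2.43 in the 5 DR-fed WT mice and 42.4, 51.2, 43.2, 99.5 and 40.01 in the 5 DR-fed Ercc1Δ/- mice, at 2.85 ± 0.31 (SE, adjusted p = 1.1e-06). Every Ercc1Δ/- mouse was at least 3 times above the highest WT mouse. Irf7 measured 12.0, 8.71, 32.5, 13.2 and 6.08 in WT and 40, 70.8, 60.0, 131 and 38.1 in Ercc1Δ/- mice, at 2.22 ± 0.38 (SE, adjusted p = 0.000681). Usp18 measured 4.01, 1.45, 11.7, 2.40 and 2.43 and 14.1, 31.5, 26.4, 46.4 and 21.0, at 2.52 ± 0.41 (SE, adjusted p = 0.00018). Ifi27l2a measured 36.8, 24.7, 64.5, 62.3 and 19.5 and 125, 205, 132, 211 and 93.4, at 1.89 ± 0.23 (SE, adjusted p = 2.33e-05). In each of these genes the groups did not overlap, as for 13 of the 34 members in all, against 3.08% of all tested genes. Among the 13 were Irf7, Mx2, Oas2, Rsad2 and Usp18, which passed the count minimum only with Ercc1Δ/- mice added.

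Other members did not differ clearly under DR. Ifi35 stood at 0.07 ± 0.12 (SE, adjusted p = 0.768) and Ifit2 at 0.15 ± 0.12 (SE, adjusted p = 0.501), and Ifit3 at 0.85 ± 0.31 (SE, adjusted p = 0.0842) was highest in mouse 022, with 127, 118, 88.8, 409 and 152 in the Ercc1Δ/- mice. Ifit3 was called with DESeq2 and without mouse 014. Isg15, in contrast, was called at 2.20 ± 0.43 (SE, adjusted p = 0.00122) although its Ercc1Δ/- values of 14.1, 43.3, 12.0, 69.5 and 13.3 reached down to the WT range of 1.45 to 12.4. Uba7, which was not called under AL, differed by 1.19 ± 0.18 (SE, adjusted p = 9.61e-05). The remaining calls were Sp100 (1.36), Bst2 (1.14), Trim25 (1.16), Slfn5 (0.89), Lgals3bp (1.52), Xaf1 (1.18), Eif2ak2 (0.87), Dhx58 (1.73), Rtp4 (2.21) and others down to Samd9l (0.41). Without mouse 022 the count was 20. Macrophage marker sums were 1035 to 1247 in WT and 1346 to 2337 in Ercc1Δ/- mice under DR, and 5 of 9 tested markers were called higher.

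**Figure D4:**
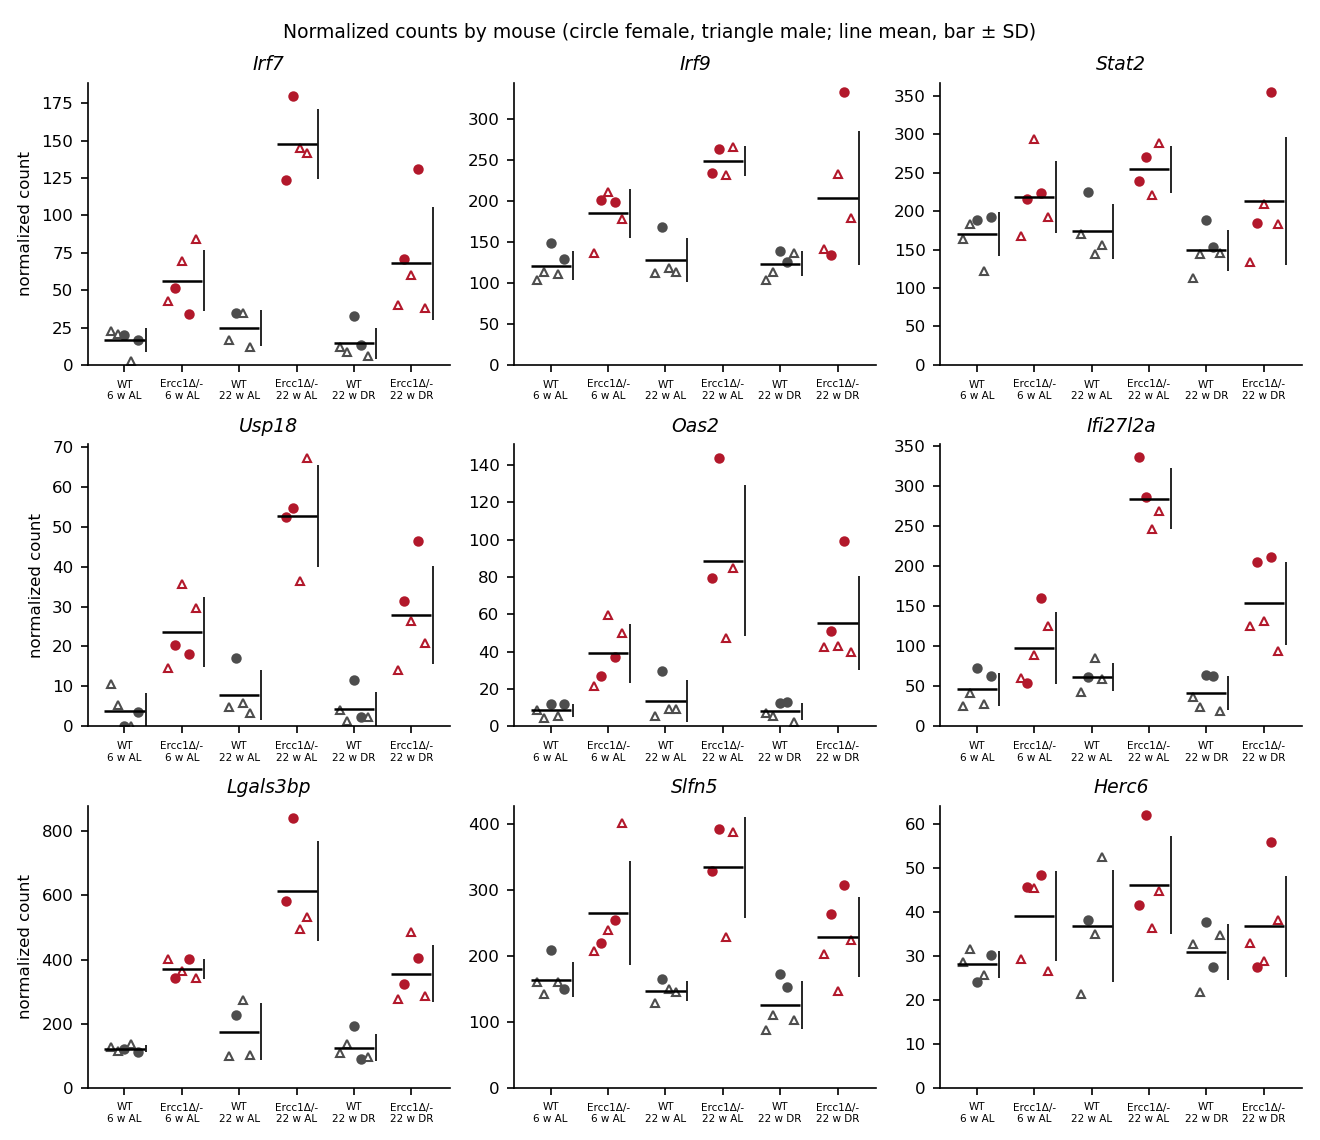
Normalized counts of 9 members in each of the 28 mice, by group, on linear axes from 0, with circles for females and triangles for males. Horizontal lines are group means and vertical bars ± SD, cut at 0. AL-fed Ercc1Δ/- mice of 22 weeks stand apart from WT mice in Irf7, Irf9, Usp18, Oas2, Ifi27l2a, Lgals3bp and Slfn5, and overlap them in Herc6 and Stat2.

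Dietary restriction went with lower estimates in both genotypes and with few calls. In Ercc1Δ/- mice of 22 weeks, 33 of 34 members lay below 0 under DR, with a median log2 change of -0.37 against 0.00 over all genes. In edgeR 0 members were called, where 0.988% of all genes were called lower, and 2 (Ifi27l2a and Irf7) with DESeq2. For 6 members the unadjusted p was under 0.05, and no share of all genes is given at that threshold. Ifi27l2a came closest. It measured 335, 286, 246 and 269 under AL and 125, 205, 132, 211 and 93.4 under DR, without overlap, at -0.85 ± 0.22 (SE, adjusted p = 0.054). Irf7 measured 124, 179.7, 145 and 142 under AL and 40, 70.8, 60.0, 131 and 38.1 under DR, where 4 of the 5 restricted mice lay below the AL range and mouse 022 lay inside it, at -0.96 ± 0.32 (SE, adjusted p = 0.144). Lgals3bp did not overlap either, with 583, 841, 497 and 533 under AL and 278, 323, 487, 405 and 286 under DR, at -0.72 ± 0.31 (SE, adjusted p = 0.287), and it was not called. Of the 34 members 2 were lower without overlap, against 3.02% of all tested genes. Slfn5 stood at -0.49 ± 0.15 (SE, adjusted p = 0.09), and Trim25 was the member above 0, at 0.13 ± 0.23 (SE, adjusted p = 0.859). Without mouse 022, 1 member was called (Ifit3) and the median was -0.55, and without AL-fed mouse 026 the median was -0.21. Of the 9 tested macrophage markers 5 were called lower (C1qa, C1qb, C1qc, Cd68 and Mrc1), and their part in these values was not tested.

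In WT mice of 22 weeks DR also went with lower values. Of the 34 members 32 lay below 0, with a median of -0.49 against 0.01 over all genes, and 2 were called lower, where 0.939% of all genes were. Uba7, the activating enzyme for ISG15, measured 58.2, 119, 68.4 and 50.5 under AL and 29.4, 40.6, 46.2, 55.1 and 29.8 under DR, at -0.996 ± 0.17 (SE, adjusted p = 0.00256). Sp100 measured 55.3, 151, 114 and 72.5 under AL and 54.1, 47.9, 82.7, 75.5 and 44.4 under DR, at -0.78 ± 0.19 (SE, adjusted p = 0.036). In both genes the groups overlapped, and mouse 018 held the highest AL value. Without mouse 018, 0 members were called and the median was -0.32. The count was 1 without AL-fed mouse 020 or without any of the DR-fed mice 010, 017, 021 and 028. Irf9, Parp9 and Mx2, which were below 0 in the whole group, were above 0 without mouse 018. The interaction of genotype and diet called 0 members in edgeR, against a background of 0.0971%, and 0 with DESeq2. Its smallest adjusted p was 0.331 in edgeR's quasi-likelihood test. At an unadjusted p under 0.05 stood 3 members, and no share of all genes is given at that threshold. A single member's interaction estimate had a median standard error of 0.35. The median estimate over the members was 0.11, and its sign rested on single mice. This median was -0.15 without mouse 022, -0.07 without 018 and -0.01 without 004. It was 0.26 without 026 and -0.35 with mice 017, 018 and 022 left out together, where 28 members lay below 0.

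**Figure D5:**
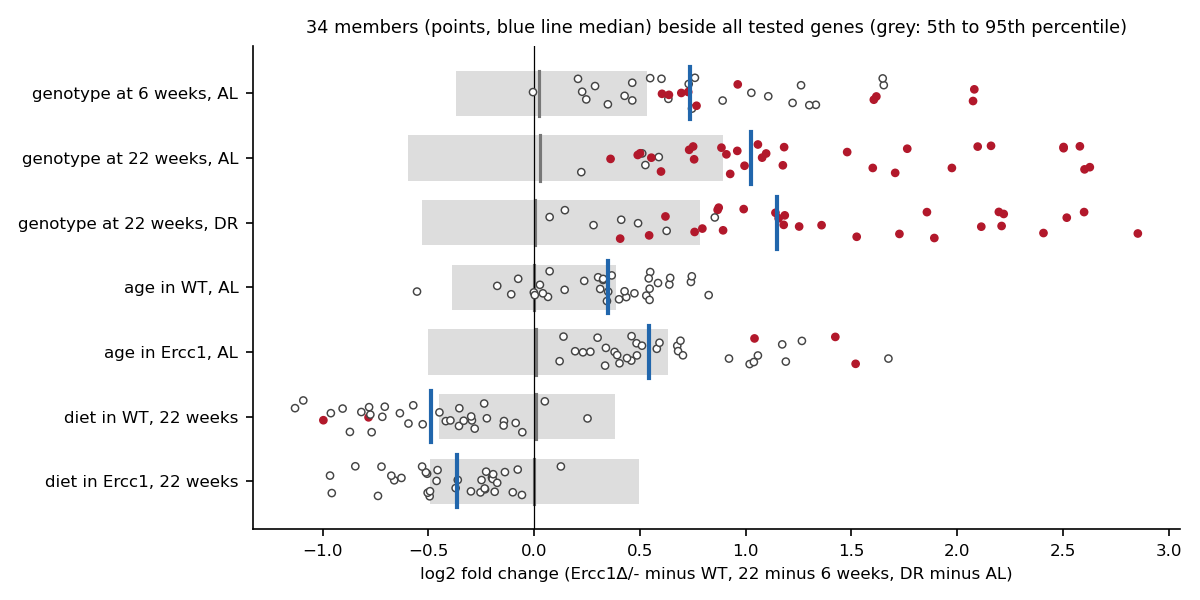
Log2 fold changes of the 34 tested members (points, filled when called, with the median as a blue line) in 7 comparisons, beside the 5th to 95th percentile of all 12353 tested genes (grey bars, with their median). The points lie to the right of 0 in the 3 genotype comparisons and mostly to the left in both diet comparisons.

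Within 3 groups of 22 weeks, 1 mouse stood highest for most members. Among the 4 AL-fed WT mice, mouse 018 was highest for 32 of the 40 members, and its values were at the median 1.71 times the mean of the other mice (with 1 added to each). Among the 5 DR-fed WT mice, mouse 017 was highest for 29 members, at 1.60 times the others. Among the 5 DR-fed Ercc1Δ/- mice, mouse 022 was highest for 33 members, at 1.94 times the others, with Ifit1 at 176 against 15.7 to 52.8 and Irf9 at 333 against 134 to 233. In AL-fed Ercc1Δ/- mice of 22 weeks the lead was shared, with mouse 005 highest for 18 members and mouse 013 lowest for 23. At 6 weeks mouse 011 was highest for 19 members in WT and mice 027 and 015 for 15 and 14 in Ercc1Δ/- mice. The macrophage sums of mice 018, 017 and 022 (1244, 1149 and 1437) lay inside the ranges of their groups, and none of them was the highest. Their fibroblast sums (15820, 11330 and 10580) were the highest of their groups. So were their T and NK cell sums (5.53, 5.86 and 9.55), from markers counted too rarely to be tested. No other marker list was highest in each of these mice. The part of these cells in the higher values was not tested.

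The mice 018, 017 and 022 were females, and 018 was the single female among the AL-fed WT mice of 22 weeks. Over all 6 groups, with 11 females and 17 males, the sex term of the fit was above 0 (female higher) in 33 of 34 members, with a median of 0.32 against 0.00 over all genes. In edgeR 0 members were called, where 0.186% of all genes were called in either direction, and 2 (Ifi27l2a and Oasl2) with DESeq2. The unadjusted p was under 0.05 for 21 members, and no share of all genes is given at that threshold. Uba7 had the smallest adjusted p, at 0.45 ± 0.11 (SE, adjusted p = 0.0969). The number of calls was 2 without mouse 008, 1 without 015, 2 without 027 and 1 without 024. With mice 018, 017 and 022 left out together, which were picked for their high values, the median was 0.08 and 10 members lay below 0. In the same setting 23 members were called for genotype under DR and 6 for diet in Ercc1Δ/- mice.

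The genes that make and receive the signal were looked at as separate lists. Of 10 interferon genes (Ifnb1, 4 Ifna genes, Ifne, Ifnk, Ifng, Ifnl2 and Ifnl3), 9 had 0 counts among the 103690739 counts of all 28 libraries, which allows each up to 0.0289 CPM over all libraries and 0.302 CPM in the 4 AL-fed Ercc1Δ/- libraries of 22 weeks, limits that cover counting error only. Ifne had 2 counts. Of 26 genes of interferons, receptors and signalling 16 were tested, and 4 were called higher in AL-fed Ercc1Δ/- mice of 22 weeks, where 5.88% of all tested genes were: the receptor chains Ifnar2 (0.50 ± 0.15) and Ifngr1 (0.39 ± 0.10), and the regulatory factors Irf8 (1.16 ± 0.32) and Irf5 (0.96 ± 0.29). Ifnar1, the other receptor chain, was not called, at 0.12 ± 0.11 (SE, adjusted p = 0.533). Irf8 had 377 counts over all 28 libraries, so its estimates here rest on few reads. In Ercc1Δ/- mice under DR, Irf8 (-2.14), Ifnar2 (-0.60) and Ifngr2 (-0.51) were called lower, where 0.988% of all tested genes were. Of 18 alternatives, these diet calls were lost under 2 for Irf8, 12 for Ifnar2 and 10 for Ifngr2. Irf1 was called higher at 6 weeks (0.55), against 0.567% of all, and its call was lost under 8 of 18 alternatives. The genotype calls of Irf5 and Ifnar2 under AL at 22 weeks were lost under 9 of 16 alternatives each. That of Irf8 was lost under 4 and that of Ifngr1 under 2.

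Of 16 sensors and adaptors that induce interferon 12 were tested. In AL-fed mice of 22 weeks, Rigi (0.82 ± 0.14), the RNA sensor RIG-I, and Myd88 (0.47 ± 0.13) were called higher in Ercc1Δ/- mice and Traf3 (-0.61 ± 0.13) lower. Of all tested genes, 5.88% were called higher there, and no share called lower is given. Sting1, the adaptor of cytosolic DNA sensing, stood at 0.70 ± 0.30 (SE, adjusted p = 0.137), and Cgas was counted too rarely to be tested. Rigi was also called at 6 weeks (0.66), where 0.567% of all tested genes were called higher. Of 13 brakes on the pathway 11 were tested, and Samhd1 (0.56 ± 0.15) and Ptpn6 (1.18 ± 0.33) were called higher under AL at 22 weeks, against the same 5.88%. Of 16 alternatives, the call of Myd88 was lost under 7, that of Ptpn6 under 3 and that of Samhd1 under 2, and those of Rigi and Traf3 under 0. A list of 64 other interferon-stimulated genes, of which 43 were tested, had 19 called higher and 1 (Znfx1, -0.58) lower, against 5.88% of all tested genes called higher, and a median of 0.66. Among them were Ifitm3 (1.24 ± 0.15), which blocks viral entry, the Schlafen gene Slfn2 (2.29 ± 0.29), Phf11d (1.203 ± 0.17) and the DNA-binding Ifi200 family genes Ifi205 (1.97 ± 0.34) and Ifi204 (1.90 ± 0.33). In this list 5 were called higher at 6 weeks (0.567% of all genes) and 25 under DR (5.97% of all). Ifitm3 (-0.54) and Ly6e (-0.76) were called lower by DR in Ercc1Δ/- mice (0.988% of all). Of 18 alternatives, the diet call of Ly6e was lost under 11 and that of Ifitm3 under 4.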

How the data were processed

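RNA of the aortic arch was sequenced from 29 mice. The counts were deposited by the authors as whole reads per gene, and per the labels and methods they used bcl2fastq 2.20, UMI-tools 1.1.2 for unique molecular identifiers, fastp, STAR 2.7.10a on mm39 and HTSeq 2.0.2 over whole genes, with a directional kit and no stated strand setting. The authors tested with DESeq2 1.34.0. Here edgeR 4.0.16 in R 4.3.3 gave the main values (TMM, quasi-likelihood F test, group and sex terms, Benjamini-Hochberg adjustment over 12353 genes) and DESeq2 1.42.0 an alternative. The AL comparisons of genotype and age were fitted on the 18 AL-fed mice, and those of DR and diet on the 18 mice of 22 weeks. Mouse 003 was left out. A gene was called at an adjusted p of at most 0.05 and a fold of at least 1.2, and interactions by the adjusted p alone. Standard errors were taken from the estimate and its F value.

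Each replicate was a separate mouse with a number of its own. On simulated data for genotype at 22 weeks under AL, with 12353 genes, 200 genes were changed 3-fold in the Ercc1Δ/- group. Of these, 174 were recovered in the right direction, with 14 wrong calls. Smaller changes, such as those of many called members, were not simulated. Depth was 921167 to 9616382 counts, so that low genes are known least well in the shallow Ercc1Δ/- libraries. Members and lists were chosen with earlier results of these data known. Values of every mouse were given by rule for the 8 members with the smallest p for genotype at 22 weeks under AL, the 3 transcription factors, the 3 lowest estimates there, and up to 5 called members of the comparisons at 6 weeks, of age in WT mice, of diet and of the interactions. Other members shown by mouse were chosen after their values were seen. A pathway gene that the rule names is not reported here. Alternatives were size factors, no count minimum, no sex term, thinning, a single fit of 6 groups, mouse 003 added, an earlier dispersion method and each mouse left out. The sex comparison, the dispersion method and the omission of 3 mice together were added after seeing the data.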

Additional observations from a re-analysis of the deposited data

Results flagged for a closer look

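Among 96 sets of 1 gene in 1 group of 4 or 5 mice, 12 held a mouse far from the others of its group. Chance gives about 1 in 20 for a single set. The sets share their mice and are not independent, so the 12 cannot be judged against that share. All values are normalized counts. Mouse 018 (WT, 22 weeks, AL) stood high in Irf9 at 168.6 against 112.5 to 118.8, in Oas2 at 29.94 against 5.821 to 9.40, in Xaf1 at 58.96 against 25.64 to 29.11 and in Samd9l at 231.7 against 170.1 to 174.6. Mouse 017 (WT, DR) stood high in Irf7 at 32.55 against 6.083 to 13.19 and in Usp18 at 11.72 against 1.451 to 4.009. Mouse 022 (Ercc1Δ/-, DR) stood high in Oas2 at 99.55 against 40.01 to 51.16 and in Sp100 at 222.3 against 123.8 to 148.7. Slfn5 was high in mouse 011 (WT, 6 weeks) at 208.9 and in mouse 027 (Ercc1Δ/-, 6 weeks) at 402.1, where mouse 011 rested on 52 raw counts. Samd9l was high in mouse 007 (WT, DR) at 183.8, and Ifi35 was low in mouse 002 (Ercc1Δ/-, 6 weeks) at 130.7.

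Outside the 40 members, Nlrc5, a regulator of MHC class I genes, was called for the interaction of genotype and diet. The estimate was 2.556 on the log2 scale (edgeR's quasi-likelihood test, adjusted p = 0.0497). The call was lost under 20 of 27 alternatives, so a differing response to diet is uncertain.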

How the results depend on the processing

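The number of members called for genotype at 22 weeks was 21 to 30 under AL with 1 mouse left out and 21 to 31 under the other alternatives, and under DR 20 to 28 and 22 to 30. Age in WT mice and both interactions had 0 calls throughout. Counts that moved by over 1.5 times were these. For age in Ercc1Δ/- mice 3 became 5 with DESeq2, without a count minimum or without the sex term, 6 in a single fit of 6 groups, and 2 to 9 with 1 mouse left out. For diet in Ercc1Δ/- mice 0 became 2 with DESeq2, without a count minimum or thinned, 6 without mice 017, 018 and 022, and 0 to 1 with 1 mouse left out. For diet in WT mice 2 became 1 in a single fit, 0 without the sex term, with mouse 003 added, thinned or without the 3 mice, and 0 to 2 with 1 mouse left out. At 6 weeks 10 became 17 with DESeq2, 5 thinned, and 2 to 11 with 1 mouse left out. For sex 0 became 2 with DESeq2 and 0 to 2 with 1 mouse left out. Of the refitted values of named or called genes outside the members, 333 lost a call and 1223 kept their side of the threshold. The cause was not tested.

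Signs turned most often in comparisons without calls: in 125 of 918 refitted member values for genotype by diet, 45 of 884 for genotype by age and 43 of 578 for age in WT mice. In the other comparisons most estimates that turned were near 0, except Usp18 (-0.78) and Mx2 (-0.57) for diet in WT mice. With 1 mouse left out, the log2 change with age in Ercc1Δ/- mice ran from -0.016 to 0.29 for Ifi27. The change under DR in Ercc1Δ/- mice ran from -0.10 to 0.26 for Trim25, -0.54 to 0.001056 for Mx2, -0.67 to 0.22 for Isg15, -0.20 to 0.033 for Bst2 and -0.14 to 0.025 for Ifi27. In WT mice it ran from -0.18 to 0.019 for Irf9, -0.24 to 0.008351 for Parp9, -0.78 to 0.40 for Mx2 and -0.21 to 0.038 for Ifi27, and without the 3 mice it was 0.078, 0.047 and 0.53 for Irf9, Parp9 and Mx2. Thinned, it was 0.0004113 for Trim25, -0.17 for Ifi35 and 1.08 for Usp18, and without the sex term 0.040 for Ifi27. For genotype, Ifi35 under DR ran from -0.028 to 0.17 and was -0.027 without the 3 mice, and Ifit2 at 6 weeks ran from -0.12 to 0.10 and was 0.002354 without the sex term.

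No paired analysis was possible because each mouse has a number of its own. Low members (Mx1, Oas3, Ifi44) rest on few reads in the shallow Ercc1Δ/- libraries.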
